A study of Pinus pinaster with 21 samples.

Results

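Small RNA in the roots of maritime pine (Pinus pinaster) was compared 2 h after irrigation with 3 mM and with 0.1 mM ammonium, over the 742 identifiers that all 6 libraries of the comparison list, out of 32711 in the deposited table. The 6 libraries are 3 of roots that received 3 mM NH4Cl and 3 of roots that received 0.1 mM NH4Cl, in a volume of 80 mL. All came from 1-month-old seedlings of 1 provenance, which had spent 3 days on a nutrient solution with no nitrogen, and each library holds the pooled roots of 10 seedlings. The whole experiment was run 3 times, and each run gave 1 library per dose, so that the doses are compared within experiments 1, 2 and 3. The whole series has 21 libraries in 7 groups, with roots before irrigation and water-irrigated roots at 2 h and 24 h among them.

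Plant miRNAs are short RNAs cut from hairpin precursors by a Dicer-like enzyme. They are loaded into an Argonaute protein, which they guide to transcripts with a matching site. In Arabidopsis, miRNAs that act on NF-YA transcription factors and on auxin receptors are known to respond to nitrogen supply. Ammonium is a main form of nitrogen in the soils of conifer forests, is taken up by root ammonium transporters and becomes toxic to many plants in excess. The dose comparison asks which small RNAs of the root differ between a low and a high dose of ammonium soon after irrigation.

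The table names its small RNAs by serial labels such as MIR_828, with no family, sequence or position, so that no label can be tied to a miRNA family or to a target, and the tissue could not be checked against known root miRNAs. A value of 0 means that a library does not list an identifier. It is not read as absence, since no count between 0 and 5 occurs in the table. Values below are counts per 1000000 counts of the 742 identifiers (CPM), scaled with TMM factors. A difference is the mean over the 3 experiments of log2 CPM at 3 mM minus log2 CPM at 0.1 mM. Tests are two-sided and use edgeR's quasi-likelihood F test with the experiment as a block and Benjamini-Hochberg adjustment over the 742 identifiers. The standard error (SE) and the 95% interval of a difference come from limma in the same paired model. The 3 runs were independent. The edgeR and limma p-values weigh a difference against its variation between runs, with variance information shared over the 742 identifiers.

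The total count was 7720980, 8095647 and 8183070 at 3 mM and 8324123, 6409777 and 8459275 at 0.1 mM in experiments 1, 2 and 3. The number of identifiers listed was 3872, 4608 and 4578 at 3 mM, against 4117, 4320 and 4801 at 0.1 mM. The 742 shared identifiers carried 66.5%, 66.9% and 63.8% of the counts at 3 mM and 62.5%, 68.4% and 67.0% at 0.1 mM. In each of these 3 measures the value at 3 mM was higher in 1 experiment and lower in 2, and the exact permutation test over the 3 pairs gave p = 1 (two-sided, where 0.25 is the smallest p that 3 pairs allow). Mean CPM of the 742 ranged from 2.98 to 191472, with a median of 161. The lowest count of any of them in any library was 7, and 2 of them had a count under 10 in some library. Of the other identifiers, 606 were listed by 5 of the 6 libraries, with a median listed count of 319, against a median count of 836 for the 742.

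At 2 h no identifier passed the test between 3 mM and 0.1 mM ammonium, and most estimated differences were small. The absolute difference had a median of 0.13 log2 units and a 90th percentile of 0.37. The most abundant small RNAs, MIR_828 and MIR_352, had estimates within 0.06 log2 units of equal levels. MIR_10 and MIR_183, also among the 10 most abundant, had estimates of 0.85 and 0.63. The test called 0 of 742 (0%), with a smallest adjusted p of 0.88. At an unadjusted p under 0.05 there were 40 (5.39%), of which 27 (3.64%) were higher and 13 (1.75%) lower at 3 mM. Tests with no difference at all would give a share close to 0.05. The split of 27 to 13 holds for TMM factors. With library totals 36 had an unadjusted edgeR p under 0.05, and their split by direction was not counted. limma called 0 with 41 at an unadjusted p under 0.05, and DESeq2 called 1, MIR_1205, which is described below.

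The data bounded most differences. The 95% interval lay within 1 log2 unit of 0 for 690 of the 742 (93%) and within 0.5 log2 units for 356 (48%). It excluded 0 for 28 identifiers that were higher at 3 mM (3.77%) and for 13 that were lower (1.75%), before any correction for the number of identifiers. Estimates over 1 log2 unit in size numbered 5 (0.674%), and those over 0.5 numbered 32 (4.31%). In all, 363 estimates were above 0 and 379 below it. With library totals in place of TMM factors this split became 246 to 496, and the median difference was -0.09 log2 units, against -0.00402 with TMM factors.

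**Figure D1:**
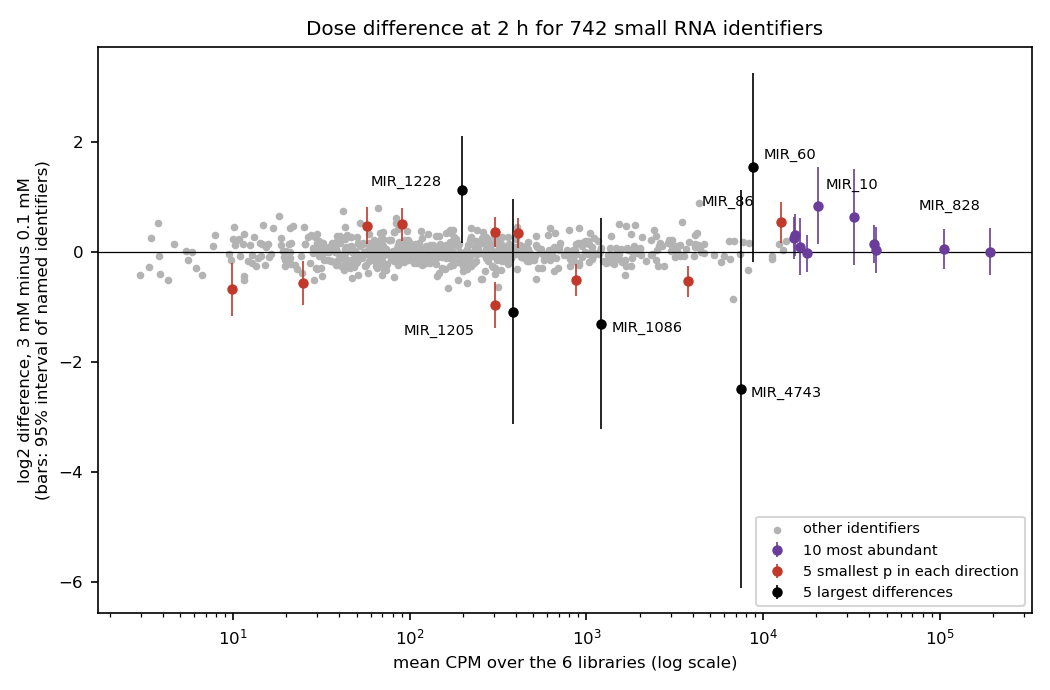
Difference between 3 mM and 0.1 mM ammonium at 2 h (log2 units, positive where 3 mM is higher) against mean CPM (log scale) for 742 identifiers. Bars are 95% intervals of the named identifiers. Most points lie close to 0 at every level, and the 5 largest differences have intervals that are wide against those of the 5 identifiers with the smallest p in each direction. Both sets were chosen from these values, and choice by p favours narrow intervals.

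The most abundant identifiers were described first. MIR_828 had 191405, 206537 and 177836 CPM at 3 mM in experiments 1, 2 and 3, against 187443, 176023 and 209589 CPM at 0.1 mM. It was higher at 3 mM in experiments 1 and 2 and lower in experiment 3, with a difference of 0.01 log2 units (SE 0.17, interval from -0.42 to 0.44). As a share of the counts of the 742, with no TMM factor, MIR_828 made up 16.0%, 21.5% and 18.8% at 3 mM and 16.8%, 20.4% and 22.1% at 0.1 mM (exact permutation p = 0.75, two-sided). MIR_352 had 110725, 109569 and 102657 CPM at 3 mM and 109609, 96119 and 104636 CPM at 0.1 mM. Its groups overlapped, and its difference was 0.06 log2 units (SE 0.14, interval from -0.31 to 0.43). With library totals in place of TMM factors, the edgeR estimates of MIR_828 and MIR_352 were -0.0748 and -0.0241 log2 units. The 10 most abundant identifiers together made up 52.5%, 50.0% and 47.9% of the counts of the 742 at 3 mM and 49.9%, 47.6% and 49.4% at 0.1 mM (exact permutation p = 0.5, two-sided).

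Several of the other abundant identifiers differed more between experiments than between doses. MIR_57 had 71482, 28952 and 31528 CPM at 3 mM and 67725, 23851 and 29739 CPM at 0.1 mM. Both libraries of experiment 1 stood far above the other 4. With TMM factors the 3 mM library was slightly higher within each experiment, by 0.15 log2 units on average (SE 0.13, interval from -0.19 to 0.49). The TMM factors of experiment 1, 0.835 at 3 mM and 0.894 at 0.1 mM, differ by more than the step of MIR_57 there. Its direction in experiment 1 thus rests on the scaling, and its edgeR estimate with library totals was 0.0645 log2 units. MIR_94 showed the widest such gap of the 10, with 31387, 5976 and 9310 CPM at 3 mM and 31617, 4981 and 6548 CPM at 0.1 mM, and a dose difference of 0.25 log2 units (SE 0.15). MIR_6 had 70288, 35376 and 28650 CPM at 3 mM and 59983, 31536 and 35058 CPM at 0.1 mM, again high in both libraries of experiment 1, with a dose difference of 0.03 log2 units (SE 0.16). MIR_36 had 30898, 10070 and 11121 CPM at 3 mM and 22036, 8757 and 14646 CPM at 0.1 mM. It was higher at 3 mM in experiments 1 and 2 and lower in experiment 3, and its difference was 0.10 log2 units (SE 0.20).

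MIR_353 varied less, with 15345, 19346 and 18450 CPM at 3 mM and 17085, 19976 and 16745 CPM at 0.1 mM. Its difference of -0.02 log2 units (interval from -0.35 to 0.31) changed sign between experiments. MIR_30 went the other way across experiments from MIR_94. It had 10229, 20340 and 20774 CPM at 3 mM and 10024, 14078 and 15986 CPM at 0.1 mM, lowest in experiment 1 at both doses. With TMM factors it was higher at 3 mM in 3 of 3 experiments (difference 0.31 log2 units, SE 0.15, interval from -0.07 to 0.69). In experiment 1 the direction of MIR_30 rests on those factors, and its edgeR estimate with library totals was 0.230 log2 units.

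MIR_10 and MIR_183 had the largest dose differences of the 10. MIR_10 had 36373, 16997 and 19984 CPM at 3 mM and 32786, 9220 and 7030 CPM at 0.1 mM. The paired difference was 0.15 log2 units in experiment 1, 0.88 in experiment 2 and 1.51 in experiment 3, so that all 3 pointed the same way while the groups overlapped. Their mean was 0.85 log2 units (SE 0.27, interval from 0.15 to 1.55, adjusted p = 0.88 in edgeR). MIR_183 had 61099, 27103 and 33999 CPM at 3 mM and 19691, 26759 and 28560 CPM at 0.1 mM. Its difference of 0.63 log2 units (SE 0.34, interval from -0.24 to 1.51) came mostly from experiment 1, where it was 1.63, against 0.02 and 0.25 in experiments 2 and 3.

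**Figure D2:**
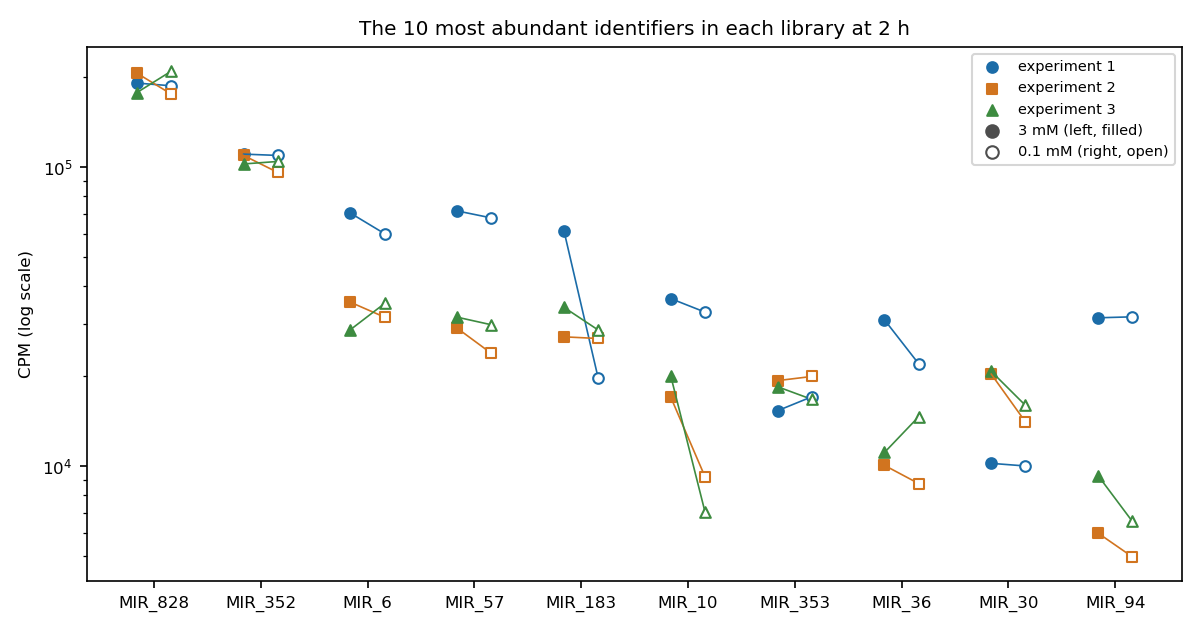
CPM (log scale) of the 10 most abundant identifiers at 2 h, with 3 mM (filled, left) joined to 0.1 mM (open, right) within each of the 3 experiments. MIR_828 and MIR_352 are nearly level across all 6 libraries, while MIR_6, MIR_57, MIR_36, MIR_10 and MIR_94 are highest in both libraries of experiment 1.

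By abundance, the identifiers with a mean of at least 10000 CPM leaned upward at 3 mM, with 13 of 16 higher and 3 lower. This lean depended on the scaling. It was 14 to 2 with upper-quartile factors and 9 to 7 with library totals. With TMM factors, 6 of the 16 were higher in 3 of 3 experiments and 1 was lower in 3 of 3. Over all 742 these numbers were 110 (14.8%) and 82 (11.1%). The counts in 3 of 3 were not repeated with library totals. For MIR_57 and MIR_30, which are among the 6, the direction in experiment 1 rests on the TMM factors. The groups of none of the 16 were apart. At 1000 to under 10000 CPM, 61 were higher and 48 lower (44 and 65 with library totals). Of the 331 identifiers at 100 to under 1000 CPM, 149 were higher and 182 lower, and of the 286 under 100 CPM, 140 were higher and 146 lower. From the highest class to the lowest, the absolute difference had a median of 0.13, 0.13, 0.11 and 0.14 log2 units. The interval lay within 0.5 log2 units of 0 for 50.0%, 50.5%, 58.3% and 35.0% of these classes in the same order. It lay within 1 log2 unit of 0 for 87.5%, 89.9%, 96.1% and 90.9%. The rarest class was thus lowest at the limit of 0.5 and the most abundant class at the limit of 1.

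Over all 742, with TMM factors, the 3 libraries at 3 mM lay entirely above the 3 at 0.1 mM for 34 identifiers (4.58%). They lay entirely below them for 25 (3.37%). Within experiment 1, 390 were higher and 352 lower at 3 mM. The numbers were 383 and 359 within experiment 2 and 364 and 378 within experiment 3. TMM factors hold most differences near 0, so near-even splits are partly set by the scaling. The median absolute difference within an experiment was 0.19, 0.19 and 0.20 log2 units. The mean over the 3 experiments had a median absolute value of 0.13, as given above.

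Among the 5 identifiers with the smallest p that were higher at 3 mM, MIR_5125 came first. It had 118, 103 and 97.6 CPM at 3 mM and 82.1, 67.6 and 75.1 CPM at 0.1 mM in experiments 1, 2 and 3. Its groups did not overlap, and the difference was 0.50 log2 units (SE 0.12, interval from 0.20 to 0.81, adjusted p = 0.88 in edgeR). The adjusted p of MIR_5125 ranged from 0.507 to 1 over the alternatives, and it was higher in 3 of 3 experiments.

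MIR_4635 and MIR_4806 had small but even differences. MIR_4635 had 322, 373 and 331 CPM at 3 mM and 256, 300 and 240 CPM at 0.1 mM. With TMM factors the groups were apart, with a difference of 0.37 log2 units (SE 0.11, interval from 0.09 to 0.64). The unadjusted edgeR p of MIR_4635 was 0.0154 with TMM factors and 0.0652 with library totals. MIR_4806 had 469, 479 and 426 CPM at 3 mM and 376, 367 and 336 CPM at 0.1 mM. Its 3 paired differences were 0.32, 0.38 and 0.34 log2 units, with an SD of 0.03, against a median SD of 0.24 over the 742. Choice by p favours identifiers with a small SD, so this contrast is partly set by the choice. The unadjusted edgeR p of MIR_4806 was 0.0155 with TMM factors and 0.0599 with library totals.

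MIR_86 and MIR_5231 were higher at 3 mM within every experiment, though their groups overlapped because the experiments differed in level. MIR_86, 13th in abundance, had 21187, 10681 and 13080 CPM at 3 mM and 15068, 8609 and 7450 CPM at 0.1 mM (difference 0.54 log2 units, SE 0.15, interval from 0.16 to 0.91, adjusted p = 0.88 in edgeR, with a range of 0.257 to 1 over the alternatives). MIR_5231 had 78.6, 70.8 and 51.6 CPM at 3 mM and 60.2, 44.8 and 39.0 CPM at 0.1 mM, a difference of 0.48 log2 units (SE 0.13, interval from 0.15 to 0.82).

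Of the 5 identifiers with the smallest p that were lower at 3 mM, MIR_1205 had the smallest p of all 742. It had 146, 129 and 375 CPM at 3 mM and 300, 312 and 561 CPM at 0.1 mM. Experiment 3 was the highest at both doses, so that the groups overlapped, and in each experiment the 3 mM library was the lower. The paired differences were -1.04, -1.27 and -0.58 log2 units, with a mean of -0.96 (SE 0.16, interval from -1.39 to -0.54). Its unadjusted p was 0.0019 in edgeR and its adjusted p 0.88. DESeq2 gave an adjusted p of 0.00186, and MIR_1205 was the 1 identifier it called. Over the alternatives the adjusted p ranged from 0.00186 to 1 and the estimate from -0.81 to -1.18 log2 units. Of these alternatives only DESeq2 called it.

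MIR_4574 and MIR_4598 were lower at 3 mM with groups that did not overlap. MIR_4574 had 2960, 3039 and 3206 CPM at 3 mM and 4135, 4639 and 4483 CPM at 0.1 mM, with a spread within each dose that was small against the gap. Its difference was -0.53 log2 units (SE 0.11, interval from -0.81 to -0.24, adjusted p = 0.88 in edgeR, with a range of 0.129 to 1 over the alternatives). MIR_4598 had 647, 747 and 764 CPM at 3 mM and 906, 1174 and 1007 CPM at 0.1 mM (difference -0.51 log2 units, SE 0.11, interval from -0.80 to -0.22).

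The other two were rare small RNAs. MIR_7182 had 36, 40 and 40 counts at 3 mM, so that its values rest on few reads. MIR_7182 had 8.40, 7.08 and 7.27 CPM at 3 mM and 11.4, 12.6 and 12.4 CPM at 0.1 mM (difference -0.67 log2 units, SE 0.19). MIR_5531 had 17.7, 22.3 and 20.4 CPM at 3 mM and 30.5, 31.2 and 26.9 CPM at 0.1 mM (difference -0.55 log2 units, SE 0.16). The groups of both were apart. None of the 10 identifiers with the smallest p passed the edgeR test, so these values are descriptions and not changes.

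**Figure D3:**
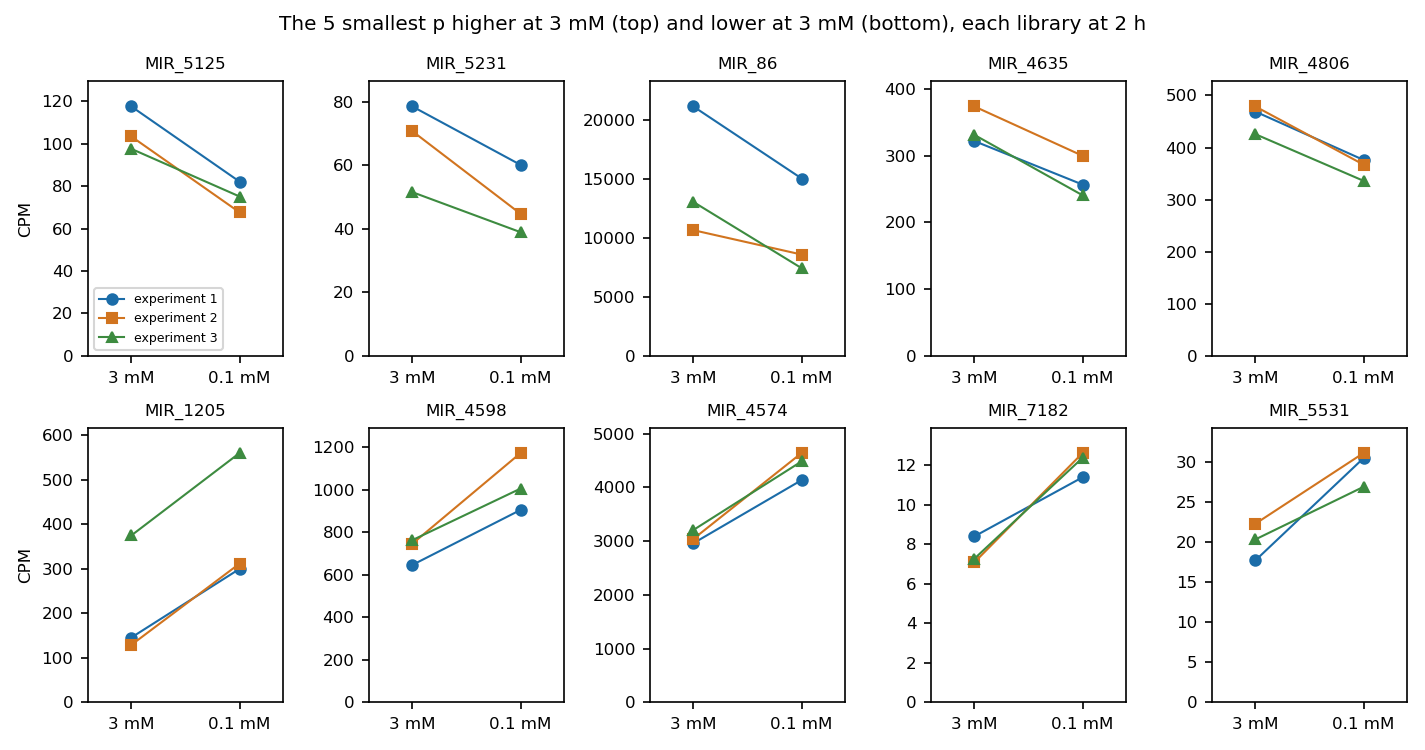
CPM at 2 h of the 5 identifiers with the smallest p that were higher at 3 mM (top row) and the 5 that were lower (bottom row), with 3 mM on the left, 0.1 mM on the right and lines joining libraries of 1 experiment. Every line runs in the direction of its row, which choice by p favours. MIR_1205 and MIR_86 show 1 experiment well above the others.

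The 5 largest differences had another pattern, though choice by size favours identifiers with a wide spread. In MIR_4743, MIR_1086 and MIR_4510 a single library held the difference. MIR_4743 had 65.8 CPM in experiment 1 at 3 mM, 9604 and 7181 CPM in the other 3 mM libraries, and 8084, 9414 and 10379 CPM at 0.1 mM. Its difference was -2.48 log2 units (SE 1.41, interval from -6.09 to 1.13). In edgeR its estimate was -1.74 with all experiments and -0.27 without experiment 1. MIR_1086 was low in the same library, with 98.2 CPM, against 1621 and 1220 CPM in the other 3 mM libraries and 1235, 1548 and 1517 CPM at 0.1 mM. Its difference was -1.30 log2 units (SE 0.75), and its edgeR estimate of -1.16 became -0.14 without experiment 1.

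MIR_4510 was low in experiment 3 at 3 mM, where it had 38.5 CPM, against 391 and 565 CPM in the other 3 mM libraries and 386, 451 and 465 CPM at 0.1 mM. Its difference was -1.08 log2 units (SE 0.80), and its edgeR estimate of -0.91 became 0.15 without experiment 3. MIR_60 had 8276, 12262 and 15523 CPM at 3 mM and 11606, 1497 and 3684 CPM at 0.1 mM. It was lower at 3 mM in experiment 1 and higher by 3.03 and 2.07 log2 units in experiments 2 and 3, with a mean of 1.54 (SE 0.67, interval from -0.18 to 3.26). MIR_1228 had 213, 242 and 304 CPM at 3 mM and 45.8, 126 and 256 CPM at 0.1 mM, with paired differences of 2.21, 0.94 and 0.25 log2 units that shared a direction and differed in size (mean 1.14, SE 0.38, adjusted p = 0.88 in edgeR).

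Libraries that stood far from the rest were rare, though both libraries of 1 experiment could stand apart together. In 10 of the 742 identifiers (1.35%) some library stood over 2 log2 units from the median of the other 5, and in 72 (9.70%) some library stood over 1 log2 unit from it. By library, the identifiers more than 1 log2 unit away numbered 39, 6 and 17 at 3 mM in experiments 1, 2 and 3, and 29, 7 and 12 at 0.1 mM. The libraries of experiment 1 thus held the most at both doses. The 6 libraries had 110 such values in the 72 identifiers, so in some identifiers more than 1 library was counted. These counts can therefore include shifts shared by both libraries of an experiment.

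The 6 libraries varied more by experiment than by dose, and experiment 1 stood apart most often. Experiment took a median of 53.6% of the sum of squares of log2 CPM of an identifier, dose 9.30% and the rest 24.4%. Their shares of the 5 degrees of freedom are 40%, 20% and 40%. Those shares are what the mean part would be without any effect. A median of skewed parts can lie well below its mean, so medians and shares are not directly comparable. Experiment had the largest part in 443 identifiers, the rest in 209 and dose in 90. Both libraries of experiment 1 lay above the other 4 for 127 identifiers and below them for 119, or 33.2% of the 742 together. The same held for 15.4% with experiment 2 and 19.0% with experiment 3. The share that a random order of the 6 libraries would give was not worked out, so the values of experiments 2 and 3 are descriptions. Of the identifiers furthest from the others in experiment 1, chosen after their values were seen, MIR_320 stood 3.65 log2 units higher there and MIR_4045 1.95 higher, while MIR_4643 stood 1.92 lower.

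The levels after water at 2 h were set beside both doses over the 584 identifiers (78.7% of the 742) that the 3 water libraries also list, with CPM scaled over those 584. MIR_1205 had 155, 139 and 406 CPM at 3 mM and 321, 338 and 602 CPM at 0.1 mM, and 126, 216 and 168 CPM after water. All 3 values at 0.1 mM were above all 3 after water, while those at 3 mM overlapped them. MIR_5125 had 125, 112 and 106 CPM at 3 mM, 87.8, 73.2 and 80.6 CPM at 0.1 mM and 78.2, 81.2 and 84.6 CPM after water, so that its 3 mM libraries were above the other 6. MIR_4574 had 3150, 3278 and 3469 CPM at 3 mM, 4420, 5024 and 4809 CPM at 0.1 mM and 3222, 3614 and 4433 CPM after water, so that water overlapped both doses. MIR_86 was highest after water in experiment 1, with 37982, 13897 and 12792 CPM, against 22550, 11519 and 14155 CPM at 3 mM and 16106, 9323 and 7993 CPM at 0.1 mM.

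Of the 27 identifiers that were higher at 3 mM with an unadjusted p under 0.05, 18 could be set against water. The mean after water lay between the doses in 11, below both in 6 and above both in 1. Of the 13 lower ones, 9 could be set against water, and their mean after water lay between the doses in 6, above both in 2 and below both in 1. Over all 584 identifiers the mean after water lay between the doses in 145, above both in 212 and below both in 227. Where the doses stand further apart there is more room between them, so the first 2 counts are descriptions and were not tested.

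The dose difference at 2 h was then tested against that at 24 h, with the 4 libraries at 24 h that list most identifiers, namely 3 mM in experiments 1 and 3 and 0.1 mM in experiments 2 and 3. The 24 h libraries share only experiment 3 between doses, so dose and experiment are partly mixed there. Of the 551 identifiers listed by all 10 libraries, the test called 0 (0%), with 44 at an unadjusted p under 0.05 (7.99%) and a smallest adjusted p of 0.358 (edgeR, experiment as a block). limma also called 0. For the dose difference at 24 h itself, edgeR called 0 of 551 (0%), with 27 at an unadjusted p under 0.05 (4.9%).

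MIR_1205 had the smallest p of this test. At 24 h it stood at 194 and 403 CPM at 3 mM and at 138 and 197 CPM at 0.1 mM, with CPM scaled over the 551. Within experiment 3 it was thus higher at 3 mM at 24 h, 403 against 197 CPM, and lower at 3 mM at 2 h, 407 against 608 CPM. The difference at 24 h was 0.80 log2 units (interval from 0.24 to 1.37), and it exceeded that at 2 h by 1.75 (SE 0.30, interval from 1.04 to 2.46, adjusted p = 0.358 in edgeR).

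The next were MIR_5125 and MIR_4650. MIR_5125 had 104 and 98.2 CPM at 3 mM and 113 and 112 CPM at 0.1 mM at 24 h. Its difference there was -0.24 log2 units (interval from -0.57 to 0.08), 0.76 below that at 2 h (SE 0.17, adjusted p = 0.568 in edgeR). MIR_4650 had 150 and 144 CPM at 3 mM and 181 and 221 CPM at 0.1 mM at 24 h, against 186, 201 and 195 CPM at 3 mM and 137, 143 and 177 CPM at 0.1 mM at 2 h. The estimates of these 3 identifiers at 24 h had the opposite sign to those at 2 h, and none passed the test of the difference. The 3 were chosen by the p of that test, which favours identifiers whose estimates at 2 h and 24 h lie apart.

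MIR_86 kept its direction, at 22148 and 15694 CPM at 3 mM and 9934 and 12031 CPM at 0.1 mM at 24 h, a difference of 0.34 log2 units (interval from -0.11 to 0.80). MIR_10 did not, with a difference of -0.97 log2 units at 24 h (interval from -2.20 to 0.26). Of the 27 identifiers higher at 3 mM at 2 h with an unadjusted p under 0.05, 19 were in this fit, and 7 were higher and 12 lower at 24 h. Of the 13 lower ones, 8 were in it, with 4 higher and 4 lower. Over all 551, 281 (51.0%) were higher at 24 h.

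**Figure D4:**
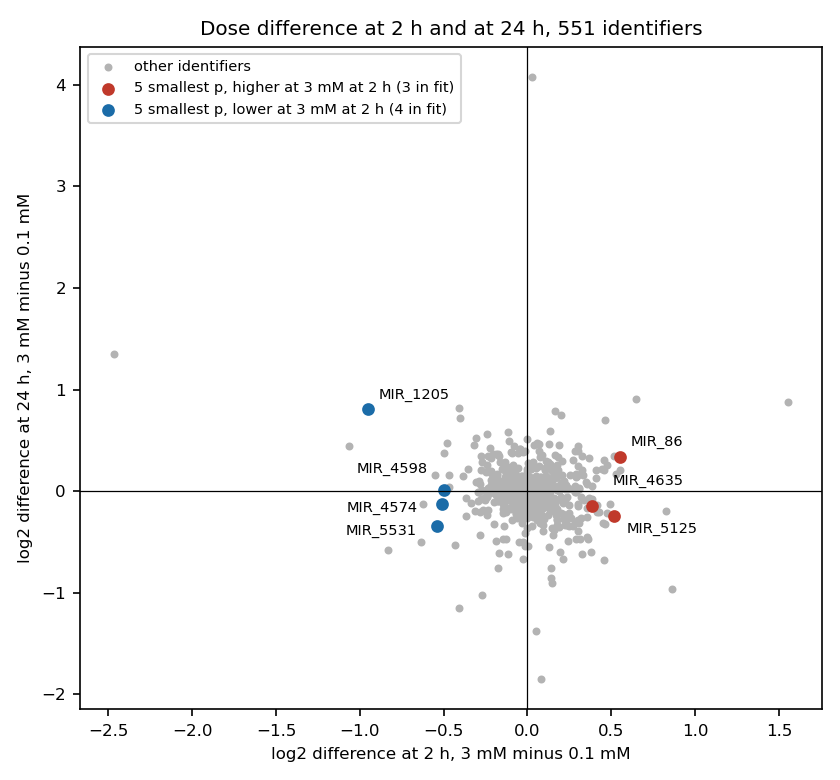
Difference between 3 mM and 0.1 mM at 2 h (horizontal) and at 24 h (vertical), in log2 units, for the 551 identifiers listed by 10 libraries. MIR_1205 lies at -0.95 and 0.80, in the upper left, MIR_86 is higher at 3 mM at both times.

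Identifiers that only some of the 6 libraries list were counted and not tested. All 3 libraries at 3 mM and none at 0.1 mM listed 47 identifiers, and all 3 at 0.1 mM and none at 3 mM listed 60. Of the 1153 identifiers listed by exactly 3 of the 6 libraries, 523 were listed by 1 at 3 mM and 2 at 0.1 mM. Another 523 were listed by 2 at 3 mM and 1 at 0.1 mM. Whether the 47 and the 60 exceed what random listing would give was not tested. The 47 carried 0.240% of the counts at 3 mM, and the 60 carried 0.230% of the counts at 0.1 mM. Most were rare, with a median lowest count of 63 for the 3 mM set and 78 for the 0.1 mM set. In the 3 mM set, 15 of the 47 were listed by no water library at 2 h and 4 by all 3. In the 0.1 mM set, 20 of the 60 were listed by no water library and 2 by all 3. At 24 h, 2 of the 47 were again listed by both 3 mM libraries and neither 0.1 mM library, and 3 showed the reverse. Of the 60, 2 were listed at 24 h by both 3 mM libraries and neither 0.1 mM library, and 3 by both 0.1 mM libraries and neither 3 mM library.

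The most abundant of these identifiers are given in counts, with no fold against an unlisted library. MIR_7554 had 4263, 5838 and 8637 counts at 3 mM and was not listed at 0.1 mM, while 2 water libraries at 2 h listed it with 7490 and 7411 counts. MIR_7508 had 1285, 2103 and 1711 counts at 3 mM and was listed by 2 water libraries, and MIR_7583 had 1168, 4068 and 3622 counts at 3 mM and was listed by 1. In the 0.1 mM set, MIR_4804 had 1781, 4382 and 4927 counts at 0.1 mM, and 1 water library at 2 h listed it with 2157 counts. MIR_385 had 2553, 1341 and 1758 counts at 0.1 mM and MIR_3906 had 854, 2076 and 2440 counts there, and 2 water libraries listed each. Every one of these 6 was thus listed by at least 1 water library at 2 h.

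Listing was also counted for pairs of libraries. Identifiers listed by exactly 2 of the 6 libraries numbered 156 to 187 for the 3 pairs of libraries of 1 experiment, 121 to 170 for the 6 pairs of 1 dose and 108 to 214 for the 6 pairs that share neither. Of the 606 identifiers listed by 5 libraries, the missing one was at 3 mM for 134, 98 and 75 in experiments 1, 2 and 3 and at 0.1 mM for 116, 101 and 82. Experiment 1 was the one most often missing at both doses. Among them were abundant small RNAs. MIR_4108 had 113279 and 110986 counts at 3 mM in experiments 1 and 2, with none listed in experiment 3, and 22561, 77190 and 129363 counts at 0.1 mM.

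**Figure D5:**
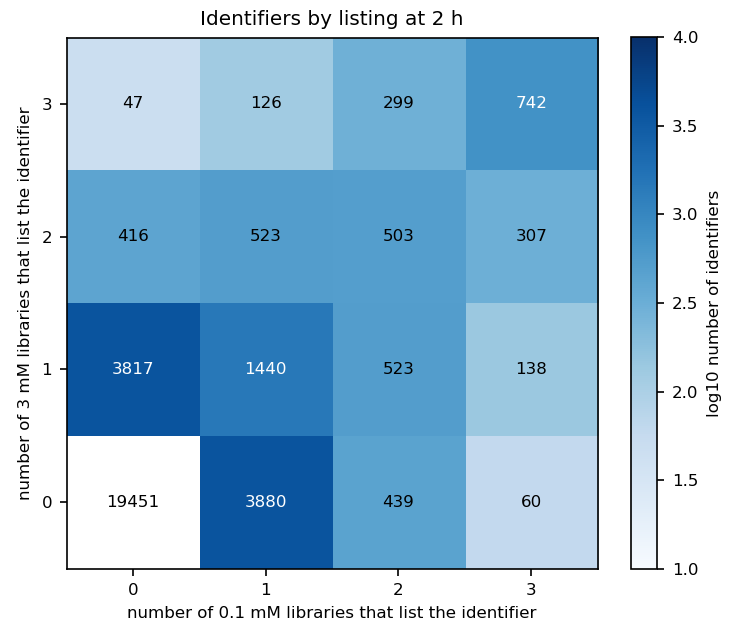
Number of identifiers by how many 3 mM libraries (vertical) and how many 0.1 mM libraries (horizontal) list them at 2 h, with colour for the log10 number and the cell of identifiers listed by none left white. The grid is close to symmetric about its diagonal, with 47 identifiers listed only by all 3 libraries at 3 mM and 60 only by all 3 at 0.1 mM.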

How the data were processed

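The authors deposited 1 table of raw whole-number counts per identifier, not normalised. Per the labels' protocols, gels were used to select RNA of 18 to 30 bp, a TruSeq kit for small RNA gave the libraries, and reads were single-end with a length of 50 bp. The submitters' processing notes name bcl2fastq and edgeR, without versions. No aligner, miRNA caller, genome build or filter is stated in these sources. Every column of the table belongs to a sample.

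Identifiers with a count above 0 in all 6 libraries (742) were kept. Library sizes are their sums, from 4386806 to 5671014 counts, with TMM factors from 0.835 to 1.16. Tests used glmQLFTest of edgeR 4.0.16 (R 4.3.3), blocked by experiment, with a threshold of 0.05 on the adjusted p. Differences come from limma 3.58.1 on log2 CPM with a prior count of 0.5. The labels say that the experiment was run 3 times, and deviations from the dose means correlated at 0.48, 0.29 and 0.19 between libraries of experiments 1, 2 and 3. Alternatives were other scalings, DESeq2 1.42.0, limma, no block, other filters, all 9 libraries at 2 h and the omission of each experiment. For totals and shares, exact permutation of signs within experiments was used.

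The text names the 10 most abundant identifiers, the 5 with the smallest p in each direction (fewer than 5 passed), the 5 largest differences, the 3 with the smallest p for the difference between times and, of those listed at 1 dose only, the 3 with the highest lowest count per direction. The identifiers compared and the tests were chosen with earlier results of these data known. Counts have no molecular identifiers, so PCR copies are counted as reads.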

Additional observations from a re-analysis of the deposited data

How the results depend on the processing

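The number of identifiers called for 3 mM against 0.1 mM at 2 h was 0 under 11 of the 12 alternatives, and it was 1 with DESeq2 (MIR_1205). Leaving out a single library removes its pair from a blocked fit, so experiments were left out whole. Without the block edgeR called 0, with 26 at an unadjusted p under 0.05 in place of 40. With identifiers listed by at least 4 of 6 libraries (2115 tested), 6 had an unadjusted p under 0.05. The test of the dose difference at 24 h against that at 2 h called 0 under all 4 of its alternatives, with 26 to 44 at an unadjusted p under 0.05. The exact permutation tests of totals and shares could not pass 0.05 with or without pairing.

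Of the named identifiers, those close to 0 changed sign. With library totals MIR_828 stood at -0.0748, MIR_352 at -0.0241 and MIR_6 at -0.0482 log2 units. With upper-quartile factors MIR_353 stood at 0.0222, and with the wider listing filter MIR_828 at -0.0264. With 1 experiment left out, MIR_828 ranged from -0.106 to 0.104, MIR_352 from -0.00883 to 0.0751, MIR_6 from -0.0816 to 0.171, MIR_353 from -0.127 to 0.0280, MIR_36 from -0.117 to 0.318 and MIR_4510 from -1.75 to 0.146. Of these, MIR_4510 was above 0 without experiment 3, MIR_36 below 0 and MIR_353 above 0 without experiment 1, MIR_352 below 0 without experiment 2, and MIR_828 and MIR_6 below 0 without experiment 1 or 2. No other named identifier changed sign under an alternative that could be fitted for it. With 3 pairs, the 95% interval reached a median of 0.37 log2 units to either side, which limits what can be told from 0.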
